A study of Homo sapiens with 6 samples.

Results

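The 10 genes described here belong to the nuclear lamina and the high-mobility-group (HMG) protein families, and they were followed through the formation of polyploid giant cancer cells (PGCCs) and the outgrowth of their daughter cells. The set is LMNA, LMNB1, LMNB2, LBR, TMPO, EMD, HMGB1, HMGB2, HMGA1 and HMGA2, taken by symbol from a table of 59008 genes, and all 10 were present. The table held 6 RNA libraries from 2 human ovarian carcinoma cell lines, Hey and SKOV3. Parental cells of each line were untreated. PGCCs had been exposed to 500 nM paclitaxel, a microtubule-stabilising drug, for 16 h and had recovered for 3 days by the treatment label, although the title of the SKOV3 PGCC library gave day 7. Daughter cells had received the same exposure and had recovered for 30 days, and each daughter library was labelled as clone 1, so that it stood for a single clone. There was 1 library for each state of each line, which leaves the 2 lines as the only repeat, and no fold change within a line carries a replicate error.

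The nuclear lamina is a meshwork of intermediate filaments beneath the inner nuclear membrane. LMNA encodes the A-type lamins, LMNB1 and LMNB2 encode the B-type lamins, and the inner-membrane proteins lamin B receptor (LBR), lamina-associated polypeptide 2 (TMPO) and emerin (EMD) tie chromatin to it. HMG proteins are abundant non-histone chromatin proteins: HMGB1 and HMGB2 bend DNA through their HMG boxes, and HMGA1 and HMGA2 bind the minor groove of AT-rich DNA with AT hooks. Loss of lamin B1 and of nuclear HMGB proteins is widely used as a sign of senescence, and HMGA proteins are typical of fetal tissue and of many carcinomas.

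TMPO, LMNB1 and LBR were among the members that were at least 2-fold lower in Hey PGCCs than in Hey parental cells, and EMD was not, so the promoters of these 4 genes are shown. Each sequence covers 250 bases before and 50 bases after a RefSeq transcription start on GRCh38.p14, read 5′ to 3′ on the gene's strand. The TMPO window is chr12:98515323-98515622 on the plus strand, the LMNB1 window is chr5:126776886-126777185 on the plus strand, the LBR window is chr1:225428772-225429071 on the minus strand and the EMD window is chrX:154379045-154379344 on the plus strand. Capitals mark the CCAAT box (CCAAT, or ATTGG when it lies on the opposite strand).
TMPO: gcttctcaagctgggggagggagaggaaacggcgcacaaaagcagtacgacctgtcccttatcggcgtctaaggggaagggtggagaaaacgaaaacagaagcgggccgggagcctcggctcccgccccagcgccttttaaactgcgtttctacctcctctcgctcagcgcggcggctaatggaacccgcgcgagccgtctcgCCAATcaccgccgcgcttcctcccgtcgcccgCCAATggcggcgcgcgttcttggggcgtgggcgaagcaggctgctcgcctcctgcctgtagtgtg
LMNB1: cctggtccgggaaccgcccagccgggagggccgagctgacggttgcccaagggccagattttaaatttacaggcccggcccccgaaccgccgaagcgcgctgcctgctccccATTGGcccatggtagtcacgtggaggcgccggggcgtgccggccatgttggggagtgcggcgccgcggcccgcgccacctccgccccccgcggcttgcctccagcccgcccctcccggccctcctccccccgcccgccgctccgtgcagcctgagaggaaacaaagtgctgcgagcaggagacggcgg
LBR: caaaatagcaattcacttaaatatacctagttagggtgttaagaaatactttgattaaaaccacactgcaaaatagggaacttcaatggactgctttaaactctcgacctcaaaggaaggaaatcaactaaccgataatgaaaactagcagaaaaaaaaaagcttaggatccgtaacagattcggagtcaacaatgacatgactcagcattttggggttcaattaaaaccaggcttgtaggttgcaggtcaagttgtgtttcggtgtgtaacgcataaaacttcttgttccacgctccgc
EMD: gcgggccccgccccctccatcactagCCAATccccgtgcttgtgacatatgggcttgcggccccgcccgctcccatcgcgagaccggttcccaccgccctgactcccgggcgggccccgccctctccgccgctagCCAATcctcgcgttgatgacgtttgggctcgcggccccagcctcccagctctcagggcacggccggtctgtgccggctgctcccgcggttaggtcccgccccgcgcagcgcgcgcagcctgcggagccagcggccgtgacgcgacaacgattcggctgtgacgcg
The TMPO and EMD windows each held 2 CCAAT boxes, the LMNB1 window held 1 on the opposite strand and the LBR window held none. A CCAAT box was found in 34.6% of all 35116 promoter windows of this length, and 2 or more were found in 10.8%. None of the 4 windows held the cell-cycle homology region letters TTTGAA or TTCGAA, present in 16.4% of all windows, or an E2F motif (TTTCCCGC, TTTGGCGC, TTTCGCGC, TTTGCCGC, TTCCCGCC or TTGGCGCC, which overlap one another), present in 6.26%. Both strands were searched. Among the other matched members, TTTGAA was found in a window of LMNB2 and in a window of HMGB1, both 2-fold lower in Hey PGCCs. In a window of LMNA, which was not 2-fold lower, 2 overlapping E2F motifs were found. Other windows of HMGB1 and of LMNA held neither motif, and the shares above are per window, not per gene. CCAAT boxes were thus found in EMD as well as in TMPO and LMNB1, although another LMNB1 window, not shown, held none. They were also found in windows of HMGB1, LMNA and HMGA1, of which only HMGB1 was 2-fold lower in Hey PGCCs. The windows also differed in base composition, with a GC content of 38.3% for LBR, 65.0% for TMPO, 73.7% for LMNB1 and 73.3% for EMD. Promoter windows were matched for 8 of the 10 members, all but HMGB2 and HMGA2.

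The values are in TPM, a relative transcript abundance corrected for transcript length, which can be set side by side between genes. Summed TPM was 911825 to 920497 per library, and 19920 to 25370 genes were above 0. Mitochondrial transcripts took 2.64% of TPM in Hey parental cells and 7.37% to 14.8% in the other libraries. TPM keeps no record of the reads behind a value, so no counting error is given for single genes. Of 10 ovarian carcinoma markers, 6 to 10 were at 1 TPM or more in each library. PAX8, a Müllerian lineage factor, was at 54.7 to 136 TPM. ERBB2, which is amplified in SKOV3, was at 8.20 to 14.1 TPM in Hey libraries and 1127 to 1778 TPM in SKOV3 libraries. Other markers differed between states. In parental cells, PGCCs and daughter cells, MSLN was at 21.5, 23.3 and 0.386 TPM in Hey and 33.1, 46.1 and 1.85 TPM in SKOV3. WT1 was at 1.34, 0.530 and 4.10 TPM in Hey and 0.545, 1.23 and 2.91 TPM in SKOV3. EPCAM was at 1.43 TPM or less in Hey and at 68.8, 43.6 and 8.15 TPM in SKOV3. The 8 fibroblast markers summed to 0.274 to 28.3 TPM, lowest in Hey daughter cells and highest in SKOV3 daughter cells, with COL3A1 at 0 in 5 of 6 libraries. The 6 leukocyte markers summed to 2.05 to 70.3 TPM, of which CD68, which also marks lysosomes, gave 0.84 to 69.3 TPM, while CD3E was at 0 in every library and PTPRC in the 3 Hey libraries. In bulk RNA, fewer cells of a kind and less RNA per cell cannot be told apart.

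**Figure D1:**
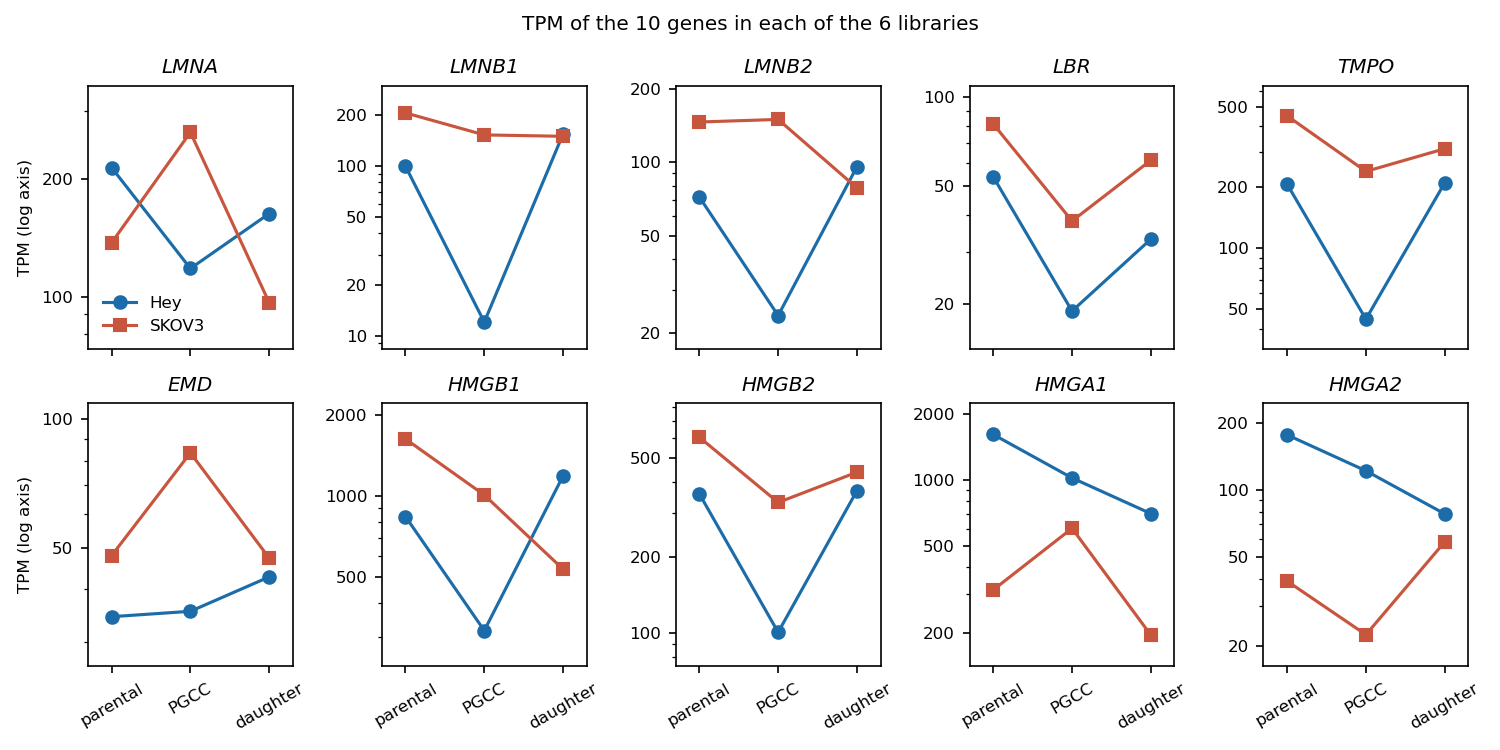
TPM of the 10 genes on a logarithmic axis in the parental, PGCC and daughter library of Hey and SKOV3 cells, 1 point per library. The Hey PGCC point is the lowest of the 6 for LMNB1, LMNB2, LBR, TMPO, HMGB1 and HMGB2, with LMNB1 at 12.0 TPM against 99.6 to 206 in the other 5 libraries.

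Among the lamins, LMNB1 (ENSG00000113368.12, chromosome 5, 126776623 to 126837020, plus strand) had the widest range of all members, with its highest library 17.1-fold above its lowest. In the order parental, PGCC and daughter, it stood at 99.6, 12.0 and 154 TPM in Hey. The SKOV3 levels were 206, 152 and 149.6 TPM. The Hey PGCC library was thus the low one, at 12.1% of its parental level, and the 5 other libraries lay between 99.6 and 206 TPM. On the log2(TPM + 1) scale, which is used for all differences below, LMNB1 was lower by -2.95 in Hey PGCCs and differed by -0.43 in SKOV3 PGCCs. Hey daughter cells were higher than Hey PGCCs by 3.58, or 12.9-fold in TPM, whereas SKOV3 daughter cells differed from SKOV3 PGCCs by -0.03.

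LMNB2 (ENSG00000176619.13, chromosome 19, 2427638 to 2456959, minus strand) encodes the other B-type lamin. Its Hey levels were 72.0 TPM (parental), 23.5 TPM (PGCC) and 95.9 TPM (daughter). In SKOV3 the levels were 146, 149.9 and 78.5 TPM in the same order. The low library was again the PGCC library in Hey but was the daughter library in SKOV3. The PGCC difference was -1.57 in Hey and 0.03 in SKOV3, and the latter ran from -0.87 to 0.12 over the processing alternatives, so that its sign was not fixed.

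LMNA (ENSG00000160789.24, chromosome 1, 156082573 to 156140081, plus strand) varied the least of the 3 lamins, with its highest library 2.74-fold above its lowest. Its levels were 214, 118 and 163 TPM in Hey parental cells, PGCCs and daughter cells. In SKOV3 they were 137, 264 and 96.4 TPM. PGCCs were therefore the lowest Hey library and the highest SKOV3 library, with differences from parental cells of -0.85 and 0.94, neither of which reached 2-fold. Differences were also computed with their trend with GC content and transcript length over all genes removed. The SKOV3 value was 0.05 without this trend and 1.02, past 2-fold, under quantile normalization. The only LMNA difference past 2-fold was that of SKOV3 daughter cells from SKOV3 PGCCs, -1.44, which was -0.97 without the GC and length trend. Lamin A and lamin C are splice products of LMNA and could not be separated in a table of genes.

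Set against one another, the lamins shifted towards LMNA in the PGCCs of both lines. In the parental, PGCC and daughter libraries, LMNA made up 55.5%, 76.9% and 39.5% of summed lamin TPM in Hey. In SKOV3 it made up 28.1%, 46.6% and 29.7%. The LMNB1 share was lowest in the PGCCs and highest in the daughter cells of each line, with 25.8%, 7.82% and 37.3% in Hey and 42.0%, 26.9% and 46.1% in SKOV3. The number of LMNA transcripts per LMNB1 transcript was 2.15, 9.83 and 1.06 in the Hey parental, PGCC and daughter libraries, and 0.669, 1.73 and 0.645 in SKOV3. PGCCs thus had the highest ratio in each line. Summed lamin TPM was 386, 154 and 413 in Hey and 489, 566 and 324 in SKOV3. Without the GC and length trend, the SKOV3 PGCC sum was 364, below the parental sum, and its LMNA to LMNB1 ratio was 1.00, still the highest of the line. With 1 library per state these ratios carry no test.

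**Figure D2:**
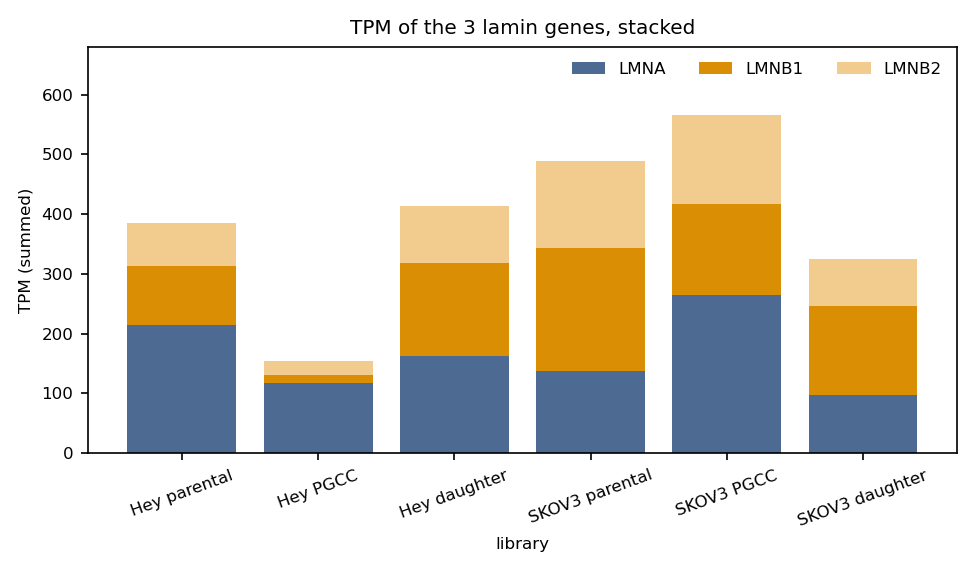
TPM of LMNA, LMNB1 and LMNB2 in each of the 6 libraries, as stacked bars from 0, so that bar height is summed lamin TPM. LMNA takes 76.9% of the bar in Hey PGCCs and 46.6% in SKOV3 PGCCs, the highest share in each line.

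LBR (ENSG00000143815.15, chromosome 1, 225401502 to 225428925, minus strand) encodes an inner-membrane receptor for B-type lamins that is also a sterol reductase. Its levels were 53.8, 18.9 and 33.1 TPM in Hey parental cells, PGCCs and daughter cells, and 81.2, 38.1 and 61.2 TPM in SKOV3. The order was the same in both lines, with parental cells highest and PGCCs lowest. Before any trend was removed, LBR was the single member past 2-fold in the same direction in both lines. Its PGCC difference was -1.46 in Hey and -1.07 in SKOV3. The SKOV3 value was -0.68 after the trend with GC content and transcript length was removed, which is less than 2-fold.

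TMPO (ENSG00000120802.14, chromosome 12, 98515579 to 98550351, plus strand) encodes the LAP2 proteins, some of which span the inner membrane while LAP2α is nucleoplasmic and binds A-type lamins. Its Hey levels were 207 TPM (parental), 44.8 TPM (PGCC) and 210.3 TPM (daughter). In SKOV3 it was at 451, 239.7 and 310.0 TPM. PGCCs were the lowest library of each line, and the Hey parental and daughter libraries were nearly level. The PGCC difference was -2.19 in Hey, a level 4.63-fold lower, and -0.91 in SKOV3, or -0.55 without the GC and length trend. The antisense gene TMPO-AS1 was at 0.53 to 3.68 TPM, and since the strand setting of the quantification was not given in the sources used here, reads of overlapping antisense genes may be shared.

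EMD (ENSG00000102119.12, chromosome X, 154379273 to 154381574, plus strand) encodes emerin, a LEM-domain protein that binds A-type lamins and the chromatin protein BAF. Its levels in Hey were 34.5, 35.5 and 42.7 TPM in parental cells, PGCCs and daughter cells. In SKOV3 they were 47.9, 83.4 and 47.3 TPM. EMD had the narrowest range of the 10 members, 2.42-fold, and none of its differences reached 2-fold. Its PGCC difference was 0.04 in Hey and 0.79 in SKOV3, and the latter was 0.17 without the GC and length trend.

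HMGB1 (ENSG00000189403.15, chromosome 13, 30456704 to 30617597, minus strand) is a nuclear DNA-bending protein that acts as an alarmin when released. Its Hey levels were 839.8 TPM (parental), 317 TPM (PGCC) and 1189 TPM (daughter). In SKOV3 it was at 1631, 1010.0 and 535 TPM. The lines therefore differed in which library was lowest, PGCCs in Hey and daughter cells in SKOV3. The PGCC difference was -1.40 in Hey and -0.69 in SKOV3, or -0.16 in SKOV3 without the GC and length trend. Daughter cells differed from parental cells by 0.50 in Hey and by -1.61 in SKOV3, the latter past 2-fold.

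HMGB1 has many processed pseudogenes, and 48 such rows were in the table, 31 of them at 0 in every library. HMGB1P6 was at 391, 137 and 627 TPM in Hey and 650.1, 448 and 261 TPM in SKOV3, which is 39.9% to 52.7% of the HMGB1 level. Such near-identical copies can split reads with their parent gene. With HMGB1 and its pseudogenes summed, the PGCC difference was -1.42 in Hey and -0.64 in SKOV3, and no HMGB1 call differed from that for HMGB1 alone.

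HMGB2 (ENSG00000164104.12, chromosome 4, 173331376 to 173334432, minus strand) is a paralogue of HMGB1 found mainly in dividing cells. It was at 359, 100.4 and 370.2 TPM in Hey parental cells, PGCCs and daughter cells. In SKOV3 it was at 605, 332 and 439 TPM. PGCCs were lowest in each line. The differences of PGCCs from parental cells were -1.83 in Hey, a level 3.58-fold lower, and -0.86 in SKOV3, or -0.51 without the GC and length trend. Hey daughter cells were higher than Hey PGCCs by 1.87, and the corresponding SKOV3 difference was 0.40, which turned to -0.04 without the trend.

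HMGA1 (ENSG00000137309.21, chromosome 6, 34236873 to 34246231, plus strand) was the most abundant member in Hey parental cells and PGCCs. Its levels were 1617, 1023 and 702 TPM in Hey parental cells, PGCCs and daughter cells. In SKOV3 they were 314, 601 and 195 TPM. All 3 Hey libraries were above all 3 SKOV3 libraries, and the daughter library was the lowest of each line. PGCCs differed from parental cells by -0.66 in Hey and 0.93 in SKOV3, neither past 2-fold, and the SKOV3 value was 0.07 without the GC and length trend. Daughter cells differed from parental cells by -1.20 in Hey, past 2-fold, and by -0.68 in SKOV3. Without the GC and length trend these were -1.30 and -1.08, past 2-fold in both lines.

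HMGA2 (ENSG00000149948.14, chromosome 12, 65824460 to 65966291, plus strand) is the oncofetal member of the AT-hook pair and a textbook target of the let-7 microRNAs. It was at 177, 122 and 78.1 TPM in Hey parental cells, PGCCs and daughter cells. In SKOV3 it was at 39.0, 22.4 and 58.5 TPM. Daughter cells were thus the lowest Hey library and the highest SKOV3 library, and the 2 lines did not overlap. Daughter cells differed from parental cells by -1.17 in Hey and 0.57 in SKOV3, and SKOV3 daughter cells were higher than SKOV3 PGCCs by 1.35. The antisense gene RPSAP52, which overlaps HMGA2, was at 1.06 to 5.63 TPM.

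Within the HMG group, HMGA1 and HMGA2 together made up 59.9%, 73.3% and 33.4% of the TPM of the 4 HMG members in Hey parental cells, PGCCs and daughter cells. The same share was 13.6%, 31.7% and 20.7% in SKOV3. The PGCC library had the highest share of each line in these values. Without the GC and length trend this held in Hey (74.3%) but not in SKOV3, where PGCCs were at 15.8% and daughter cells at 17.7%. HMGA1 exceeded HMGA2 8.39-fold to 9.15-fold in the 3 Hey libraries, whereas in SKOV3 the ratio was 8.06, 26.8 and 3.34 in the same order. The SKOV3 PGCC ratio carries the GC and length trend. For PGCC against parental that trend was 0.86 for HMGA1 and -0.03 for HMGA2.

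To ask how the PGCC state compared with the untreated state, each line's PGCC library was set against its parental library. In Hey, 6 of 10 members were at least 2-fold lower (LMNB1, TMPO, HMGB2, LMNB2, LBR and HMGB1) and none was 2-fold higher. Of 14988 genes averaging 1 TPM or more, 5.22% were 2-fold lower and 7.67% were 2-fold higher. The median member difference was -1.43, against 0.00 for all genes. In SKOV3, LBR alone was 2-fold lower and no member was 2-fold higher, against 4.96% lower and 9.94% higher of all genes, with a member median of -0.56 against 0.02. As members are abundant, the background was also taken over the 6009 genes averaging 20 TPM or more, of which 7.09% were 2-fold lower in Hey and 5.23% in SKOV3.

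**Figure D3:**
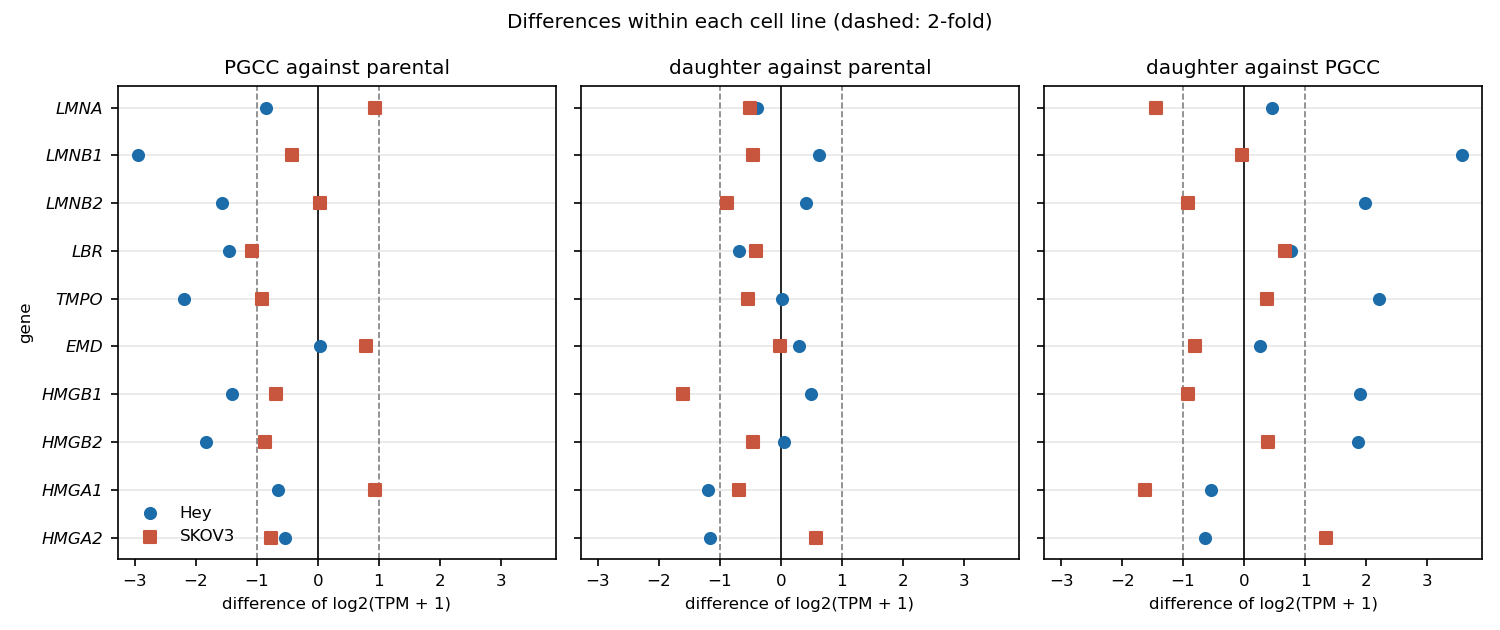
Difference in log2(TPM + 1) of each member for PGCC against parental, daughter against parental and daughter against PGCC, with Hey and SKOV3 as separate points and lines at 2-fold. For PGCC against parental, LMNB1 lies at -2.95 in Hey and -0.43 in SKOV3, and only LBR lies past 2-fold in both lines.

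The SKOV3 PGCC comparison followed base composition. Over all genes with an annotated length, the median SKOV3 difference went from -0.58 for transcripts under 40% GC, through -0.32, -0.03, 0.28 and 0.62, to 0.95 for those of 60% GC or more. In Hey the 6 medians lay between -0.06 and 0.04. The 4 members with a positive SKOV3 value, LMNA, LMNB2, EMD and HMGA1, had a GC content of 57.8% to 62.8%, and the 6 with a negative value had 39.2% to 50.01%. With the GC and length trend removed, no member was past 2-fold in SKOV3 PGCCs. LMNA went to 0.05 and HMGA1 to 0.07, while LMNB2 went to -0.87 and HMGA2 stayed at -0.75. In Hey the same step left all 6 calls in place, with LMNB1 at -3.02 and TMPO at -2.20. The part of base composition in the SKOV3 result was not tested further.

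**Figure D4:**
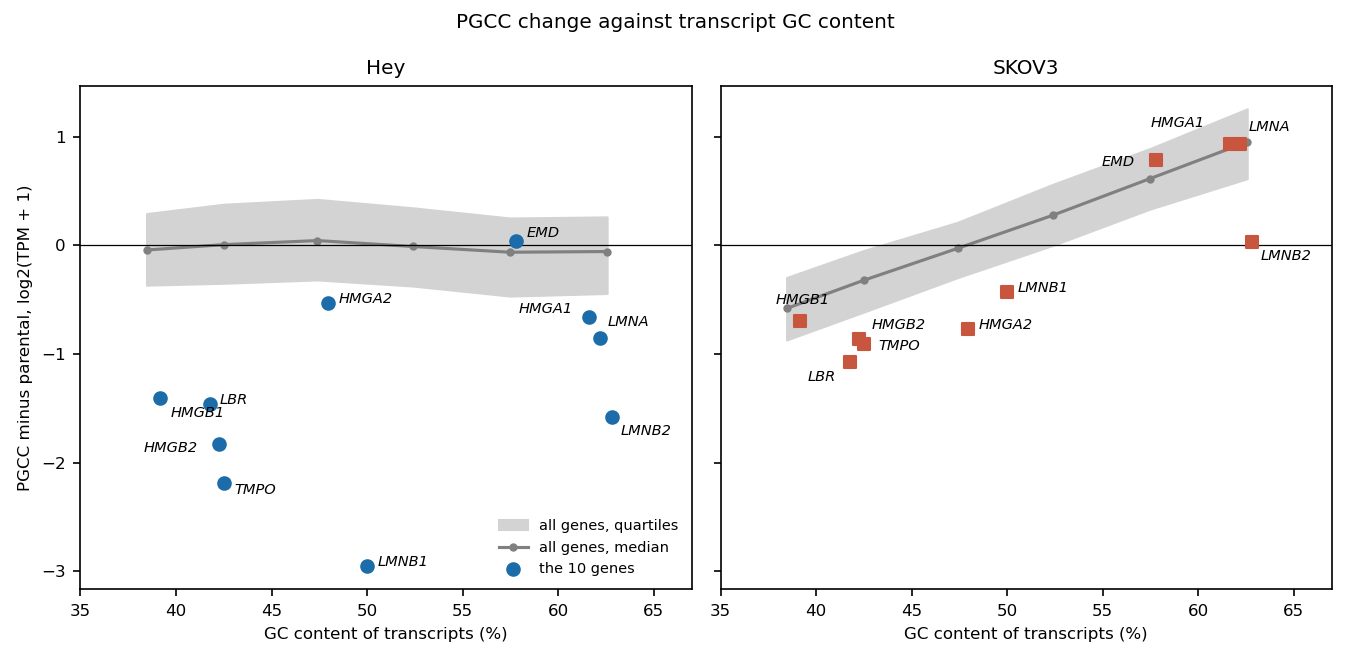
Difference in log2(TPM + 1) between PGCCs and parental cells of each member against the GC content of its transcripts, in percent, for Hey and SKOV3, with the median of all genes in each GC bin. The bin medians climb from -0.58 to 0.95 in SKOV3 and stay between -0.06 and 0.04 in Hey.

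Daughter cells were next set against parental cells, to ask whether members stood apart from the untreated state after 30 days. In Hey, HMGA1 and HMGA2 were 2-fold lower and none was 2-fold higher, against 3.73% and 6.31% of all genes. In SKOV3, HMGB1 was 2-fold lower and none was higher, against 6.34% and 15.1%. No member was past 2-fold in both lines in these values. Without the GC and length trend HMGA1 was, at -1.30 in Hey and -1.08 in SKOV3. The 6 members that were lower in Hey PGCCs were at differences of -0.69 (LBR) to 0.63 (LMNB1) in Hey daughter cells. The member median was 0.03 in Hey and -0.49 in SKOV3, where the median of all genes was itself 0.15.

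Finally, daughter cells were set against PGCCs. These comparisons share the PGCC libraries with those described first, so they are not independent of them. In Hey, LMNB1, TMPO, LMNB2, HMGB1 and HMGB2 were 2-fold higher, with differences of 1.87 to 3.58, and no member was 2-fold lower, against 9.95% and 8.13% of all genes. LBR differed by 0.78. In SKOV3, HMGA2 was 2-fold higher, while HMGA1 (-1.62) and LMNA (-1.44) were 2-fold lower, against 14.6% and 9.25% of all genes. LMNA was at -0.97 without the GC and length trend, and HMGB1, at -0.91 here, was at -1.51. No member was past 2-fold in both lines, and the medians over members were 1.32 in Hey and -0.42 in SKOV3.

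With the lines used as repeats, a limma fit of state and cell line over the 6 libraries had 2 residual degrees of freedom. No member passed an adjusted p of 0.05 in any of the 3 comparisons, against 0.02% of all genes for PGCC against parental, 0.0133% for daughter against parental and 0% for daughter against PGCC. LBR had a mean difference of -1.27 (SE 0.364) between PGCCs and parental cells, TMPO of -1.55 (SE 0.486) and HMGB2 of -1.35 (SE 0.436), each lower in 2 of 2 lines and each with an adjusted p of 1. These 3 were the members under an unadjusted limma p of 0.05 in this comparison, where 2.73% of all genes were. LMNB1 had a larger mean difference, -1.69, with a larger error (SE 0.765), and its values in the lines lay far apart. For daughter against PGCC, TMPO (1.29), HMGB2 (1.14) and HMGA1 (-1.08) were under that unadjusted threshold, with an adjusted p of 0.908 each, beside 5.06% of all genes. For daughter against parental no member was, beside 3.39% of all genes. These unadjusted counts moved with the settings run on all 6 libraries. They ran from 0 to 4 for PGCC against parental, 0 to 4 for daughter against PGCC and 0 to 1 for daughter against parental. With the GC and length trend removed they were 2, 1 and 1 in that order. The share of all genes under the threshold was not taken for these settings. An exact two-sided permutation test of single members, which swaps the state labels within each line, has 4 arrangements and cannot give a p below 0.5. It gave 0.5 for the 7 members with the same sign in both lines for PGCC against parental (EMD, HMGA2, HMGB1, HMGB2, LBR, LMNB1 and TMPO) and 1 for LMNA, LMNB2 and HMGA1. This design can therefore show no member difference at 0.05 by that test.

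Many genes of cell division were also low in the PGCC libraries. Of 12 proliferation genes, 11 were 2-fold lower in Hey PGCCs than in parental cells, against 5.22% of all genes. In SKOV3 PGCCs 5 were, against 4.96%. The median differences were -2.26 in Hey and -0.56 in SKOV3. TOP2A, which encodes topoisomerase IIα, was lower by -2.59 in Hey and -1.77 in SKOV3. The mitotic kinase gene CDK1 was lower by -1.66 and -1.87. At the other end in SKOV3, MKI67 differed by -0.24 and PLK1 by -0.20, while MCM3 (0.03) and MCM2 (0.53) were not lower. These SKOV3 values keep the trend with GC content described above. The summed TPM of the 12 genes was 1394, 389 and 1770.5 in Hey and 2985, 1645 and 1771 in SKOV3, in the order parental, PGCC and daughter. HMGB2, TMPO and LBR themselves belong to a commonly used list of G2/M genes. Of the 51 other genes on that list, 43 were 2-fold lower in Hey PGCCs (5.22% of all genes) and 18 in SKOV3 PGCCs (4.96%). Their medians were -1.86 in Hey and -0.83 in SKOV3, the latter again with the GC trend kept. The share of this in the values of the members was not tested.

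LMNB1 was closest in pattern to genes of this kind. Over log2(TPM + 1) in the 6 libraries, the 5 genes with the highest Pearson correlation to LMNB1 among 10791 genes searched were MKI67 (r = 0.997), KIF4A (0.996), CIT (0.996), SAP30L (0.995) and CENPF (0.995). MKI67 encodes the proliferation antigen Ki-67, KIF4A a mitotic kinesin, CIT citron kinase of cytokinesis and CENPF a kinetochore protein. Without the Hey PGCC library r was 0.961 for MKI67 and 0.989 for KIF4A over 5 libraries. MKI67 was at 60.5, 9.79 and 108 TPM in Hey and 122, 104 and 102 TPM in SKOV3. The 5 genes closest to HMGA2 were EIF4A2 (r = 0.997), SHOX2 (0.994), RSL24D1 (0.989), YIPF4 (0.987) and MAP3K7 (0.984). These libraries share lines and states, and the correlations are given as descriptions.

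**Figure D5:**
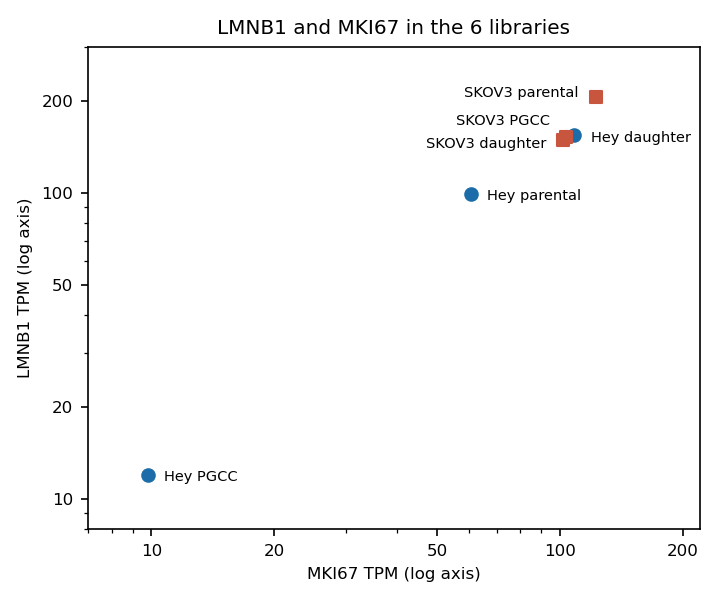
LMNB1 against MKI67 in TPM on logarithmic axes, 1 point per library, with line and state marked. The Hey PGCC library lies apart at 12.0 TPM LMNB1 and 9.79 TPM MKI67. The r of log2(TPM + 1) is 0.997 over 6 libraries and 0.961 over the other 5.

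Other genes of the nuclear envelope were counted in the same way. Of 18 (LEM-domain, SUN and nesprin genes, BAF and others), 4 were 2-fold lower in Hey PGCCs and none was higher, against 5.22% and 7.67% of all genes, with a median of -0.62. In SKOV3 PGCCs 1 was lower and 2 were higher, against 4.96% and 9.94%, with a median of 0.34. VRK1, a kinase that releases BAF from chromatin, was the one lower in both lines, by -1.03 in Hey and -1.21 in SKOV3. For daughter against PGCC, 7 were higher and 1 lower in Hey, where 9.95% and 8.13% of all genes were, and 2 were higher and 1 lower in SKOV3, where 14.6% and 9.25% were. SYNE2, which encodes nesprin-2, was higher in both, by 1.38 and 1.60. Of 6 lamin maturation genes, NARF alone was 2-fold lower in Hey PGCCs (-1.08), against 5.22% of all genes. The lamin A protease gene ZMPSTE24 alone was 2-fold lower in SKOV3 PGCCs (-1.08), against 4.96%. The SKOV3 PGCC comparisons of both lists keep the trend with GC content, and no value without it is given.

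Among 13 further HMG genes, HMGB3 (-1.36) and SSRP1 (-1.13), a subunit of the histone chaperone FACT, were 2-fold lower in Hey PGCCs. The nucleosome-binding HMGN2 (-1.08) was lower in SKOV3 PGCCs. The shares of all genes that were lower were 5.22% and 4.96%. None was higher, against 7.67% and 9.94%, and the medians were -0.43 and -0.29. For daughter against PGCC, 6 were higher and 1 lower in Hey, against 9.95% and 8.13% of all genes, with a median of 0.92. In SKOV3 1 was higher, against 14.6%, with a median of -0.02. HMGN5, a nucleosome-binding protein, was higher in both lines, by 1.41 and 1.46. As for the envelope genes, the SKOV3 PGCC comparisons here keep the trend with GC content.

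Genes of senescence arrest were examined because LMNB1 and HMGB2 are read together with them. In Hey PGCCs CDKN1A, which encodes the cell cycle inhibitor p21, was 2-fold higher (1.70) and so was GDF15 (3.41), against 7.67% of all genes. None of the 4 expressed genes of this list was past 2-fold in SKOV3 PGCCs, against 9.94% higher and 4.96% lower of all genes. The GC trend was kept in these SKOV3 values. CDKN1A was at 148, 480.0 and 89.4 TPM in Hey and 4.76, 6.84 and 3.73 TPM in SKOV3. CDKN2A was at 0.043 TPM or less in every library and at 0 in the PGCC and daughter libraries, and CDKN2B was listed at 0 throughout.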

How the data were processed

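RNA of 6 libraries was analysed, 1 for each state (parental, PGCC, daughter) of 2 established cell lines. Per the labels, the authors trimmed reads with fastp, quantified them with Salmon 0.14.1 on hg38 and deposited one table of TPM per gene. The annotation used for that and the strand setting are not given in the sources used here. TPM holds no counts, so no count model was run and no counting error is given. Differences within a line are of log2(TPM + 1), called at 2-fold over the 14988 genes averaging 1 TPM or more. With 1 library per group there is no test within a line. The test across lines was limma 3.58.1 (state and cell line, intensity trend, Benjamini-Hochberg adjustment over all genes), checked on simulated data, and its p-values measure only the spread between these libraries. Single members were given an exact permutation test over the 2 lines, added after the data were seen. Gene positions and transcript GC content come from GENCODE 44 (GRCh38), and GC and length were known for 13468 of the genes. The trend with both was removed by lowess. The genes named were the 10 members, up to 4 genes of each related list past 2-fold in both lines and the 5 genes closest in pattern to LMNB1 and HMGA2. Other genes were named after their values were seen. Members and lists were chosen with earlier results of these data known. The alternatives were another pseudocount, filter, threshold, scaling, covariate and composition setting, and leaving out each library.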

Additional observations from a re-analysis of the deposited data

Results flagged for a closer look

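The results listed here are those in which Hey and SKOV3 moved in opposite directions and lay at least 2-fold apart. Each value is the Hey difference minus the SKOV3 difference in log2(TPM + 1). With 1 library per state and line, none of these gaps between lines was tested. For PGCC against parental the gap was -1.79 for LMNA, -1.61 for LMNB2 and -1.59 for HMGA1, all 3 of them GC-rich members with a positive SKOV3 value. Without the trend with GC content and transcript length these gaps were -0.79, -0.60 and -0.67, none of them 2-fold, and LMNB2 was lower in both lines. For daughter against parental it was 1.08 for LMNB1, 1.30 for LMNB2, 2.11 for HMGB1 and -1.74 for HMGA2. HMGB1 was higher than parental in Hey daughter cells and lower in SKOV3 daughter cells, and HMGA2 had the opposite pattern. For daughter against PGCC it was 1.91 for LMNA, 3.60 for LMNB1, 2.91 for LMNB2, 1.07 for EMD (0.49 without the trend), 2.82 for HMGB1 and -1.98 for HMGA2. The LMNB1 gap came from the Hey side, since the SKOV3 difference was -0.03.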

How the results depend on the processing

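For the count of members past 2-fold in Hey PGCCs against parental, 6, a 3-fold threshold gave 3. For SKOV3 PGCCs against parental, 1, a 1.5-fold threshold gave 8, a 3-fold threshold 0, quantile normalization 2 and removal of the GC and length trend 0. For Hey daughter cells against parental, 2, the counts were 4 at 1.5-fold, 0 at 3-fold and 1 under quantile normalization, where HMGA1 was at -0.99. For SKOV3 daughter cells against parental, 1, they were 3 at 1.5-fold, 2 under median-ratio scaling, with LMNB2 at -1.07, and 3 with the trend removed, with LMNB2 at -1.23 and HMGA1 at -1.08. For SKOV3 daughter cells against PGCCs, 3, they were 7 at 1.5-fold, 1 at 3-fold and 5 under median-ratio scaling, with LMNB2 at -1.05 and HMGB1 at -1.04. The thresholds change these counts by construction, and the cause of the others was not tested. The count for Hey daughter cells against PGCCs, 5, stayed within 1.5 times under every alternative run. Of 486 alternative values for single members within a line, 438 kept direction and side of the threshold in use. Of these, 60 came from the filter on known GC content, which leaves single values unchanged by construction. A further 11 lost their call, 8 of them at the 3-fold threshold, where they were still past 2-fold. Another 27 gained a call, 19 of them at the 1.5-fold threshold without reaching 2-fold. The other 10 moved without a call. No called value changed sign. In limma the number of members past an adjusted p of 0.05 was 0 under every setting, including each library left out, which leaves 1 library in 1 arm, assumed to vary like the others. Summing HMGB1 with its pseudogenes, the background at 20 TPM and the filter on known GC content were added after the data were seen. No paired analysis was possible because of replicate numbers that pair no samples, each group holding 1 library. The libraries are linked by cell line alone, which was a term in limma and the block of the permutation test. Ratios and gaps without the GC and length trend were also added after the data were seen. Each state of a line holds 1 library, so library variation is not known. No difference within a line, near 2-fold or larger, can be told apart from it by a test.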

Other observations

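Further lists touched the members from outside the nucleus and through regulators. Of 4 HMGB1 receptor genes at a mean of 1 TPM or more, 3 were 2-fold higher in Hey PGCCs than in parental cells, against 7.67% of all genes. Levels were low, with TLR4 going from 0.196 to 2.75 TPM, TLR2 from 1.31 to 4.02 and CXCR4 from 8.49 to 25.2. TLR4 reached that mean only through its Hey PGCC (2.75 TPM) and SKOV3 daughter (2.65 TPM) libraries. The filter and its call in Hey PGCCs are therefore not independent. In SKOV3 PGCCs 1 was higher (AGER, 2.13 to 6.51 TPM) and 1 lower (CXCR4, 1.67 to 0.307 TPM), against 9.94% and 4.96%. Of 3 HMGA2 regulator genes at that level, 1 was 2-fold lower in Hey PGCCs, against 5.22% of all genes, and none was past 2-fold in SKOV3 PGCCs, and in SKOV3 daughter cells against parental cells 2 were higher, against 15.1%. Lists this short give coarse counts. LIN28A and LIN28B, which block let-7 maturation, were at 0.0405 TPM or less and 0.0206 TPM or less. Of 9 genes that build senescence heterochromatin, none was past 2-fold in Hey PGCCs, against 5.22% lower and 7.67% higher of all genes. RB1 (-1.22) and CBX3 (-1.38), which encodes an HP1 protein, were lower in SKOV3 PGCCs, against 4.96%. Of 43 S-phase genes, 36 were 2-fold lower in Hey PGCCs (5.22% of all genes) and 12 in SKOV3 PGCCs (4.96%). The SKOV3 PGCC values of all these lists keep the trend with GC content, and none without it is given.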
